A study of Mus musculus with 6 samples.

Results

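Guanylate-binding proteins are a family of large GTPases encoded in the mouse by the Gbp genes, and 9 of them were followed here: Gbp2, Gbp3, Gbp4, Gbp5, Gbp6, Gbp7, Gbp8, Gbp9 and Gbp10. They were taken by gene symbol from a table of 23413 genes, of which 14451 passed a filter on low counts and were tested, all 9 members among them. The 9 were selected on their symbol with the difference in read counts between the 2 groups already known, so that difference is a description below and carries no test. RNA was sequenced from hematopoietic stem cells of WT mouse bone marrow, sorted as F4/80 positive or F4/80 negative, with 3 libraries in each group. F4/80 is a surface protein of macrophages encoded by Adgre1, and the series title concerns trogocytosis, in which one cell takes up membrane of another. Both groups were WT, and the labels name no agent given to the mice, no age and no gate for the stem cells. Each library came from 2000 to 5000 sorted cells, and held 18637526 to 21042379 counts. No label tells whether libraries within a group stem from different mice, and a p-value here covers only the variation among these 6 libraries, part of which may be technical.

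Guanylate-binding proteins belong to the dynamin superfamily, and their genes are best known as targets of interferon gamma. Binding of interferon to its receptor activates the JAK kinases, and the signal reaches target genes at gamma-activated sites (GAS) and, through factors such as IRF1, at interferon-stimulated response elements (ISRE). The proteins gather on vacuoles that hold intracellular bacteria or parasites and on bacteria in the cytosol, and they promote inflammasome activation. Hematopoietic stem cells of the mouse are known to respond to interferons.

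In these data every member was lower in the F4/80 positive libraries than in the F4/80 negative ones, and the sizes of the difference varied widely among them. The 4 members on chromosome 3 carried most of the family's reads in both groups and were 1.4 to 2.23-fold lower in positive libraries, whereas the 5 on chromosome 5 had few reads in positive libraries and were 2.49-fold or more lower. The ranges of the 2 chromosomes all but touch, at Gbp3 and Gbp8, whose log2 fold changes of -1.16 (SE 0.19) and -1.32 (SE 0.34) do not part beyond their errors and change order without negative replicate 3 (-1.1 for Gbp3 and -1.03 for Gbp8). Summed over the 9 members, the level was 259, 301 and 234 CPM (counts scaled to the effective library size) in positive replicates 1 to 3, against 454, 469 and 533 CPM in negative replicates 1 to 3. The groups did not overlap, and the means of 265 ± 34.2 and 485 ± 41.8 CPM (SD, n = 3 each) stood 1.83-fold apart. In bulk samples, fewer cells of a type and less RNA per cell cannot be told apart.

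The chromosome 3 members lay side by side on the plus strand within 144 kb (GRCm39 chr3:142199739-142343769, from the deposited table). RefSeq promoters, spanning 250 bases before to 50 after an annotated start, were at hand for these 4 members, in the GRCm38.p6 build and on the plus strand. They are shown because each gene held a match to the ISRE core, which is GAAA, then 2 bases of any kind, then GAAA. Both strands were searched, and in the sequences below each core lies on the opposite strand and reads TTTC, 2 bases, TTTC. Capitals mark ISRE cores and matches to the GAS motif TTCNNNGAA. The windows were chr3:142620413-142620712 for Gbp2, chr3:142559794-142560093 for the first of the 2 starts of Gbp3, chr3:142496684-142496983 for Gbp5 and chr3:142530086-142530385 for Gbp7.
Gbp2: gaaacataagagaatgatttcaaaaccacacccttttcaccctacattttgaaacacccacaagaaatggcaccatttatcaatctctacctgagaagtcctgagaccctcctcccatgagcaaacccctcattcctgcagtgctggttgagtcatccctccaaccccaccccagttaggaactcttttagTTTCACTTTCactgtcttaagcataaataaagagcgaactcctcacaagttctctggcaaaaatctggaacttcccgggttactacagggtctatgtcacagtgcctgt
Gbp3: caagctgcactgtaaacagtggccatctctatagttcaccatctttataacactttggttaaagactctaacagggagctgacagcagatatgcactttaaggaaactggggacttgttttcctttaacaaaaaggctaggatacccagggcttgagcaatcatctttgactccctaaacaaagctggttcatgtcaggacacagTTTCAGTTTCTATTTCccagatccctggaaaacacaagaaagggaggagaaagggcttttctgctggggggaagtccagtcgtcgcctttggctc
Gbp5: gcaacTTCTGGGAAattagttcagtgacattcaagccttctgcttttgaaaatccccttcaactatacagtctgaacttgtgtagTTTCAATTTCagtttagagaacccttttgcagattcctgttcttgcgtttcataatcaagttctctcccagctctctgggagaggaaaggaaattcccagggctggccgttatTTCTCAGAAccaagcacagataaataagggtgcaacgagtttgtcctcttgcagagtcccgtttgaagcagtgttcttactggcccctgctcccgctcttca
Gbp7: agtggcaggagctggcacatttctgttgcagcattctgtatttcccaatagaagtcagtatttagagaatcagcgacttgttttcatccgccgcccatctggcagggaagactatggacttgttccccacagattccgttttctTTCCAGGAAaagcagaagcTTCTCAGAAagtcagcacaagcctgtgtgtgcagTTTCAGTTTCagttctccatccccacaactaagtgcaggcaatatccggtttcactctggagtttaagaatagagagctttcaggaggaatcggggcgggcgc

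The first base of the ISRE core lay 59 bases before the start of Gbp2 and 53 bases before that of Gbp7. In Gbp3 there were 2 cores that overlap each other, beginning 45 and 39 bases before the first start, and none in the window of the second start. Gbp5 had its core farther out, 165 bases before the start. The GAS motif was present in Gbp5, at 245 and 52 bases before the start, and in Gbp7, at 106 and 87 bases before it, and overlapped no ISRE core. Of 32851 mouse promoters of the same length, 3.44% held the ISRE core, 8.3% the GAS motif and 0.454% both. A kappa B consensus was found in Gbp2 and Gbp5, and in 8.46% of all promoters, and overlapped no ISRE core or GAS motif there. Counted per gene over other lists, the ISRE core was found for 6 of 8 p47 immunity-related GTPases with a promoter, 15 of 31 type I interferon-induced genes, 3 of 19 interferon gamma-induced genes that are no GTPases, and 0 of 13 dynamin superfamily relatives. These matches describe letters in a window and are not binding sites. Promoters of Gbp4, Gbp6, Gbp8, Gbp9 and Gbp10 were not analysed here.

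Among the chromosome 3 genes, Gbp2 encodes a protein that carries a lipid anchor and that mice need to control the parasite Toxoplasma. Gbp2 had 67, 68.6 and 65.5 CPM in positive replicates 1 to 3, against 107, 110 and 120 CPM in negative replicates 1 to 3. The 2 groups stood far apart relative to their spread, with a fitted log2 fold change of -0.74 (SE 0.09). Gbp7, which acts in the killing of intracellular bacteria in mouse macrophages, had 130, 145 and 116 CPM in positive libraries, against 176, 181 and 190 CPM in negative libraries. It had the most reads of the family and the smallest difference, a log2 fold change of -0.49 (SE 0.10).

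Gbp3 had 24.3, 40.8 and 27 CPM in positive replicates 1 to 3, against 59.6, 71.6 and 73.9 CPM in negative replicates 1 to 3. Positive replicate 2 was the highest of its group and still lay below every negative library, and the log2 fold change was -1.16 (SE 0.19). Gbp5, another protein with a lipid anchor that has been linked to inflammasome activation in mouse macrophages, had 24, 25.6 and 18.1 CPM in positive libraries, against 44.4, 39.5 and 45.7 CPM in negative libraries. Its log2 fold change was -0.94 (SE 0.15), again with no overlap between the groups. Summed, the 4 chromosome 3 members averaged 251 ± 27 CPM over the positive libraries, against 406 ± 21.9 CPM over the negative ones (SD, n = 3 each), a 1.62-fold difference.

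**Figure D1:**
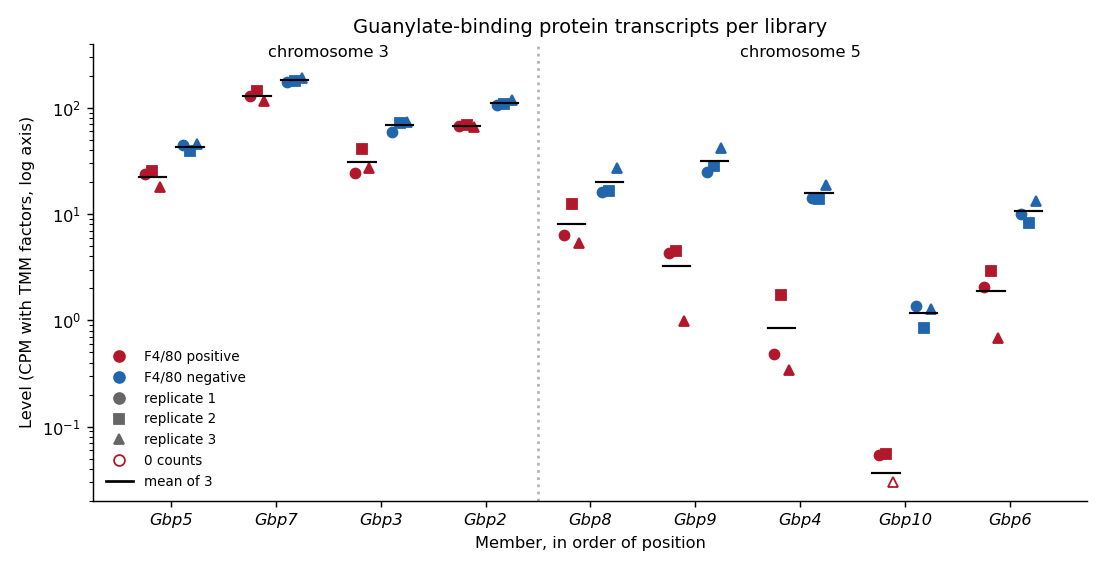
Level of each Gbp member in every library, as CPM on a log axis, with F4/80 positive libraries left of F4/80 negative ones. Each point is 1 library, each bar a group mean, and the open triangle, drawn at an arbitrary low height, a library with 0 reads; the positive points lie below the negative points for all 9 members, and the gap is widest for the low-count members of chromosome 5.

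The chromosome 5 members lay on the minus strand within 280 kb (GRCm39 chr5:105162016-105441564). Gbp4 had 0.482, 1.72 and 0.343 CPM in positive replicates 1 to 3, against 14.3, 13.9 and 18.8 CPM in negative replicates 1 to 3. This corresponds to 9, 31 and 7 reads in positive libraries and 292, 265 and 367 reads in negative libraries, so Gbp4 had fewer than 10 reads in 2 of the 3 positive libraries. The log2 fold change was -4.22 (SE 0.49), or 18.6-fold, and without positive replicate 2 it was -5.23, so that library alone changes the size by more than 1.5 times.

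Gbp9 had 4.29, 4.45 and 0.979 CPM in positive replicates 1 to 3, against 25.1, 28.1 and 42.1 CPM in negative replicates 1 to 3. Positive replicate 3 was the lowest and negative replicate 3 the highest of their groups, and the log2 fold change was -3.3 (SE 0.46). Gbp6, named with Gbp7 and Gbp10 in the killing of intracellular bacteria in mouse macrophages, had 2.04, 2.89 and 0.685 CPM in positive libraries, against 10.1, 8.33 and 13.4 CPM in negative libraries. Its log2 fold change was -2.51 (SE 0.45), a 5.69-fold difference.

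Gbp8 had 6.32, 12.5 and 5.38 CPM in positive replicates 1 to 3, against 16.2, 16.6 and 27.3 CPM in negative replicates 1 to 3. Positive replicate 2 was the highest of its group, at 12.5 CPM, and lay below negative replicate 1, the lowest of the other group, at 16.2 CPM. Gbp10 was barely read, with 1, 1 and 0 reads in positive libraries and 28, 16 and 25 reads in negative libraries. Pooled, these are 2 reads in positive and 69 reads in negative libraries, a ratio of negative over positive, scaled by library size, of 33.4. This ratio rests on 2 reads in its lower group, so its size is poorly known, and it is a description only. In each library 3 reads equal 0.146 to 0.167 CPM. The table has 1 further Gbp gene, Gbp11, which was not tested and had 0 reads in each positive library, against 0, 13 and 1 reads in negative replicates 1 to 3. Gbp2b, the remaining member of the chromosome 3 group, was not analysed here.

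In the edgeR quasi-likelihood fit across all genes with Benjamini-Hochberg adjustment, 9 of 9 members had an adjusted p below 0.05 in the lower direction, where 10.9% of all tested genes did (1572 genes) and 9.65% did in the higher direction (1395 genes). Without TMM composition factors 67.7% of the calls were lower ones (1970 genes, against 942 higher), compared with 53% with them. With the replicate number as a block, 2429 genes were lower and 2105 higher. All 9 members also had every positive library below every negative one, as did 20.5% of tested genes, while 20.1% had every positive library above every negative one. Because this contrast was known when the members were picked, nothing is read from these counts. Gbp4 and Gbp10 passed the low-count filter only through the negative libraries, so a difference was built into their passing. The call of Gbp8 was lost without positive replicate 1, without positive replicate 3 or without negative replicate 3, where its log2 fold change was -1.17, -1.09 and -1.03.

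**Figure D2:**
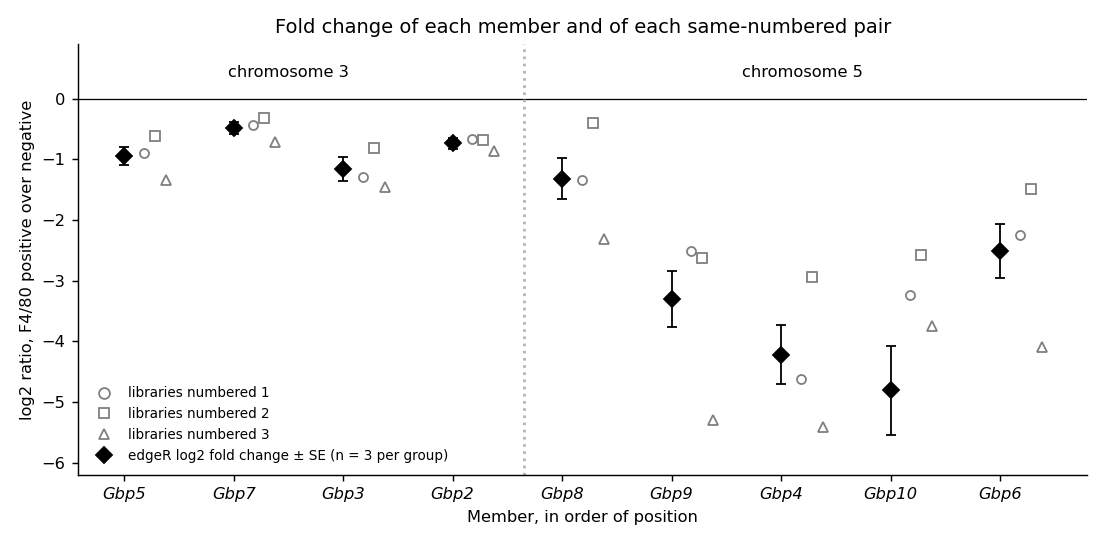
Log2 fold change of each Gbp member, positive over negative libraries, with bars of 1 standard error from the edgeR fit and small points for the 3 same-numbered pairs of libraries. All fits and pairs lie below 0. The fits run from -0.49 for Gbp7 to -4.81 for Gbp10, and the pairs from -0.32 for Gbp7 to -5.41 for Gbp4. The prior count of 2 used for the pair points pulls those of Gbp10 toward 0.

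The members were also compared within same-numbered libraries. Taking each positive library against the negative library of the same number, all 27 of 27 log2 ratios were below 0, as were 4716 of 4716 for the genes called lower. For the members this follows from the lack of overlap between the groups. For 9 of 9 members the largest drop was in pair 3. The same held for 66.2% of the 1572 genes called lower. Pair 2 had the smallest drop for 7 of 9 members and for 50% of the genes called lower. For Gbp9 the pair ratios were -2.52, -2.63 and -5.29, and for Gbp2 they were -0.67, -0.68 and -0.87, so the spread between pairs was wider for Gbp9.

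Per length, in FPKM as deposited by the authors, the order of the levels could be compared between genes. In positive libraries it ran Gbp2 (26.6), Gbp7 (23.1), Gbp3 (9.38), Gbp5 (3.39), Gbp8 (2.33), Gbp9 (0.624), Gbp6 (0.313), Gbp4 (0.113) and Gbp10 (0.00935), as means over 3 libraries. In negative libraries it ran Gbp2 (44.1), Gbp7 (32.2), Gbp3 (20.7), Gbp5 (6.44), Gbp9 (6.09), Gbp8 (5.76), Gbp4 (2.07), Gbp6 (1.76) and Gbp10 (0.297). The first 4 places were thus held by the same genes in the same order, all from chromosome 3. Neighbours whose libraries overlapped were Gbp5 and Gbp8, Gbp9 and Gbp6, and Gbp6 and Gbp4 in positive libraries, and Gbp5 and Gbp9, Gbp9 and Gbp8, and Gbp4 and Gbp6 in negative libraries. The chromosome 5 members made up 4.82%, 6.98% and 3.21% of the family's summed FPKM in positive replicates 1 to 3, against 12%, 11.7% and 16% in negative replicates 1 to 3. Gbp7 took the opposite course, with 34.5% to 36.3% of the sum in positive libraries and 25.7% to 27.9% in negative ones.

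**Figure D3:**
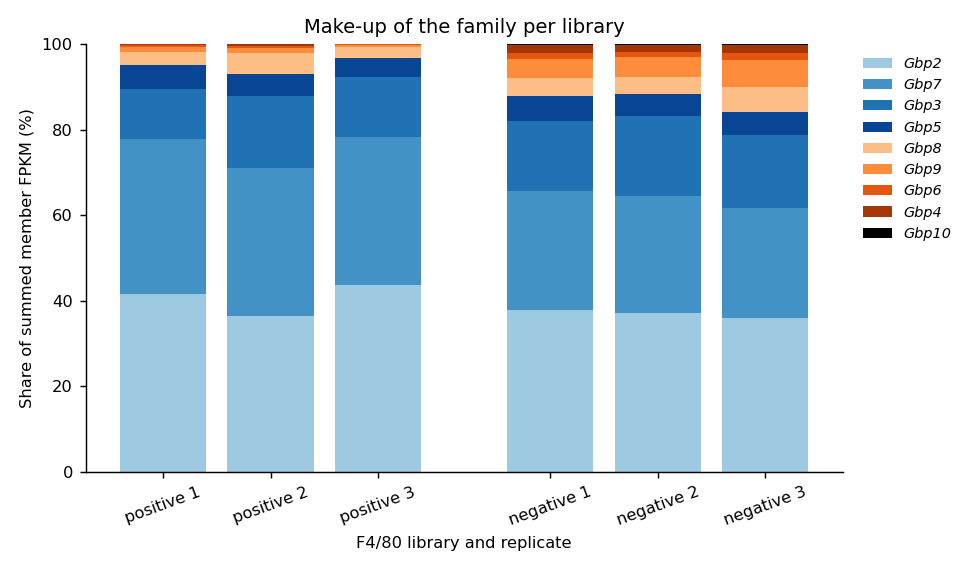
Share of the summed FPKM of the 9 Gbp members taken by each member in every library, in percent, with positive libraries left of negative ones. Chromosome 5 members hold 3.21% to 6.98% in positive libraries and 11.7% to 16% in negative libraries.

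Reads of related genes can be counted under the wrong member, and how the counter treated them was not stated in the labels or notes. Of the 50-base windows along the longest GENCODE M21 coding transcript of each gene, 62.3% of those of Gbp6 occurred in Gbp10 and 70.6% of those of Gbp10 in Gbp6. With transcripts of any other gene, Gbp6 shared 90.2% and Gbp10 82.5% of windows, mostly with the predicted gene Gm43302, which had 0 reads in each positive library and 1, 0 and 3 reads in negative replicates 1 to 3. The split of reads between Gbp6 and Gbp10 is therefore uncertain, and their sum was 2.09, 2.95 and 0.685 CPM in positive libraries, against 11.4, 9.17 and 14.7 CPM in negative libraries. Gbp8 shared 21.2% of its windows with some other gene, Gbp4 and Gbp7 12.8% each, Gbp9 9.56% and Gbp3 4.79%. Gbp2 shared 2.07% of its windows, all with Gbp2b, and Gbp5 0.898%. Gbp4, Gbp8 and Gbp9 have annotated 5′ ends within 47 bases of each other. On the same strand, the span of Gbp8 holds all of Gbp9 and nearly all of Gbp4. How reads in the shared span were split among these genes is not known. Their summed level was 5.56-fold lower in positive libraries, with 11.1, 18.6 and 6.7 CPM against 55.6, 58.6 and 88.2 CPM in negative libraries.

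**Figure D4:**
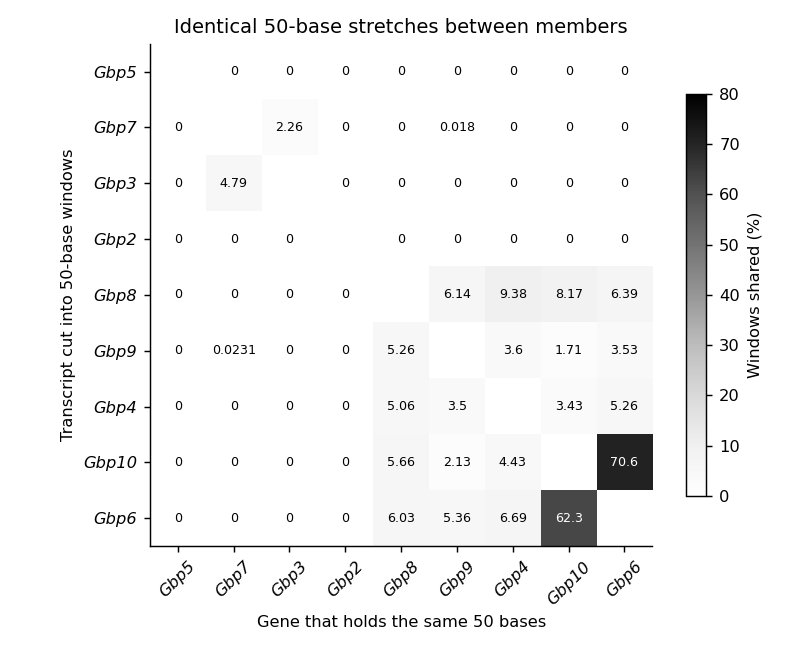
Percent of 50-base windows of each Gbp member's transcript that occur in the transcript of each other member. Gbp6 and Gbp10 share 62.3% and 70.6%, and no other pair exceeds 9.38%.

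Genes beside the 2 clusters were then read from the table, chosen after their values were seen. Next to the chromosome 5 cluster, Abcg3, an ABC transporter gene, had 27.8, 40.4 and 23.3 CPM in positive replicates 1 to 3, against 58, 87.9 and 102 CPM in negative replicates 1 to 3. It fell by 1.44 on the log2 scale (SE 0.25, edgeR adjusted p = 0.00548), and its adjusted p ranged from 2.83e-09 to 0.0315 over the alternative settings. On the other side of that cluster Gm32051, a predicted gene, was higher (log2 fold change 1.1, edgeR adjusted p = 0.0427, 0.0132 to 0.135 over the alternatives), a call lost when composition factors were dropped and in every fit leaving out a library other than negative replicate 1, while Lrrc8b, a subunit of volume-regulated anion channels, had 0.48 (adjusted p = 0.217). Beside the chromosome 3 cluster, Kyat3, a kynurenine aminotransferase, and Gtf2b, a general transcription factor, rose by 0.47 and 0.36 (edgeR adjusted p = 0.0262 and 0.019), and Pdlim5 had -0.3 (adjusted p = 0.109). The call of Kyat3 was lost in each of the 6 fits that leave out a library (adjusted p 0.00816 to 0.0824 over the alternatives), and that of Gtf2b without positive replicate 2 or 3 (0.00357 to 0.0631).

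Receptors, kinases, transcription factors and negative regulators of interferon signalling were read from a list of 22 genes. Of these, 11 fell and 0 rose, where 10.9% of all tested genes fell, and the median log2 fold change was -0.44 beside -0.03 for all genes. Ifngr2, a chain of the interferon gamma receptor, fell by 0.56 (SE 0.11, edgeR adjusted p = 0.00973), and Ifngr1, the other chain, by 0.27 (SE 0.08, adjusted p = 0.0366). Irf1, a transcription factor that drives Gbp expression in mice, had 84.4, 113 and 85.7 CPM in positive libraries, against 130, 166 and 187 CPM in negative libraries, and fell by 0.77 (SE 0.16, edgeR adjusted p = 0.0116). Irf2, which competes with Irf1 for its sites, fell by 0.53 (adjusted p = 0.00966), and Batf2, a bZIP factor induced by interferon, by 1.33 (adjusted p = 0.011), while Jak2 had -0.92 (SE 0.38) and Usp18, a negative regulator, 0.09, neither past the threshold. Socs1, another negative regulator, was among the 11 that fell, by 0.82 (SE 0.18, edgeR adjusted p = 0.0162). The negative regulators Socs3, Ptpn2, Ptpn6 and Pias1 did not pass the threshold. Without positive replicate 1 the count of the list that fell was 5, and without positive replicate 3 it was 4. The adjusted p of Irf1 ranged from 1.66e-05 to 0.054 over the alternatives and its call was lost without positive replicate 1 or 3. That of Ifngr1 ranged from 0.00803 to 0.134, and its call was lost with no filter and without any library other than negative replicate 3.

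The interferon genes themselves could be read for 1 gene only. Of 10 interferon genes on the list, Ifnb1 alone has values in the table, with 2 reads in 1 positive library and 0 in the others, which is under the floor of 3 reads. Ifng and the other 8 were not analysed here.

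The p47 immunity-related GTPases are another family with many members, though not all, that interferon gamma induces against vacuolar pathogens in mice. Most of those tested were lower in positive libraries as well. Of 9 tested, 8 fell and 1 rose, with a median log2 fold change of -0.71. Irgm2, a regulator of the family, had 57.3, 64.6 and 49.1 CPM in positive libraries, against 112, 106 and 125 CPM in negative libraries, and fell by 1.0 (SE 0.12, edgeR adjusted p = 0.00141). Tgtp1 fell by 1.22 (SE 0.17, adjusted p = 0.00258) and Igtp by 0.73 (SE 0.14, adjusted p = 0.00985). The member that rose was Ifi47, by 0.26 (SE 0.07, edgeR adjusted p = 0.0271), a call that was lost with no composition factor and in 5 of the 6 fits that leave out a library. Reads of Tgtp1 and its near copy Tgtp2 may be split between them in a way that is not known.

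Other genes that interferon gamma induces were read from a list of 29. Of 26 tested, 13 fell and 2 rose, with a median log2 fold change of -0.41. Ly6a, which encodes the stem cell antigen Sca-1, fell by 2.12 (SE 0.23, edgeR adjusted p = 0.000949). This gene is also on the list of stem cell markers read below. The class II gene H2-Aa fell by 1.82 (SE 0.23), the invariant chain gene Cd74 fell by 1.77 (SE 0.23), and the adhesion gene Icam1 fell by 0.86 (SE 0.13). The 2 that rose were Psmb8, an immunoproteasome subunit, by 0.28 (SE 0.09, adjusted p = 0.0489), and Fcgr1, an Fc receptor of macrophages, by 2.76 (SE 0.65, adjusted p = 0.0207). Without positive replicate 1 the count that fell was 8 and without positive replicate 3 it was 7, and the count that rose was 4 with the replicate block, 1 with no composition factor or the strict filter, 1 without positive replicate 3 or negative replicate 1, and 0 without positive replicate 1, positive replicate 2 or negative replicate 3.

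Type I interferon-induced genes fell in 25 of 40 tested, and 0 rose, with a median log2 fold change of -0.59. By unadjusted p below 0.05, 1 of them rose, and 1 did in DESeq2. Ifitm1, a membrane protein that restricts virus entry, had 234, 357 and 252 CPM in positive libraries, against 693, 933 and 941 CPM in negative libraries, and fell by 1.61 (SE 0.17, edgeR adjusted p = 0.000949). Ifi44 fell by 1.62 (SE 0.18), Zbp1, a sensor of nucleic acids, by 1.15 (SE 0.16) and Parp14 by 0.81 (SE 0.11). Without positive replicate 1, positive replicate 2 or negative replicate 1 the count that fell was 16, and without positive replicate 3 it was 13. The lists share genes, such as Irf1, and were chosen with earlier results known, so they are not separate evidence.

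**Figure D5:**
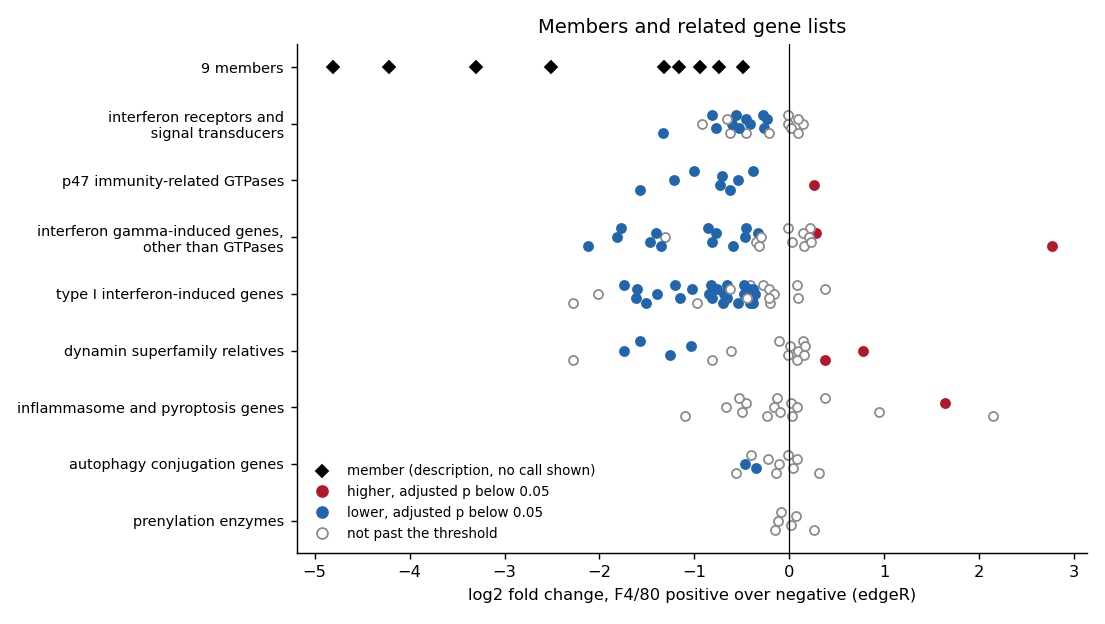
Log2 fold change, positive over negative libraries, of every tested gene of the interferon, GTPase and effector lists, 1 row per list, with the 9 Gbp members as black diamonds. Blue points passed the edgeR threshold as lower, red points as higher and open grey circles did not pass; the medians of the 4 interferon-related lists run from -0.71 to -0.41, and those of the dynamin, prenylation, inflammasome and autophagy lists are -0.01, -0.04, -0.12 and -0.14.

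Genes whose products work with guanylate-binding proteins in the cell were read next. Of 16 tested inflammasome and pyroptosis genes, 0 fell and 1 rose in edgeR, with 4 lower and 2 higher at an unadjusted p below 0.05 and 1 lower in DESeq2. With the replicate block 4 fell and 2 rose. Casp4, the mouse receptor for bacterial lipopolysaccharide in the cytosol, was at 0.03 on the log2 scale (SE 0.13), and Aim2, a DNA sensor, had -0.46 (SE 0.15, edgeR adjusted p = 0.0563). Il1b rose by 1.64 (SE 0.42, adjusted p = 0.0286, 0.0112 to 0.0976 over the alternatives), a call lost without positive replicate 2, positive replicate 3 or negative replicate 3. Of 11 autophagy genes whose products place guanylate-binding proteins on vacuoles, 2 fell, Gabarapl1 by 0.47 (SE 0.09, adjusted p = 0.0095) and Map1lc3b by 0.35 (SE 0.09, adjusted p = 0.0324, 0.0047 to 0.109 over the alternatives). Atg5 had 0.08 (SE 0.09). None of the 6 genes of the prenylation list passed the edgeR threshold, an unadjusted p below 0.05 (0 genes) or the DESeq2 threshold (0 genes). The list holds subunits of prenyl transferases and enzymes that act on proteins after prenylation. Fnta, a subunit of both prenyl transferases, had -0.15 (SE 0.09).

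The 8 genes whose pattern over the 6 libraries was nearest to that of the summed members were Limd2, Il21r, Rras, Rgs3, Irak2, Coro2b, Arhgef5 and Irgm2. Likeness was the root mean square difference of mean-centred log2 CPM, over 10355 protein-coding genes with a mean log2 CPM of at least 2, and it ran from 0.0552 for Limd2 to 0.0777 for Irgm2. Limd2 had 202, 240 and 183 CPM in positive libraries, against 357, 406 and 409 CPM in negative libraries. Like the summed members, it was highest in replicate 2 within the positive group and highest in replicate 3 within the negative group. Il21r encodes a cytokine receptor, Irak2 a kinase of Toll-like and interleukin receptors, and Irgm2 is the p47 GTPase described above. This is a description of 6 libraries, with no p.

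Markers of cell types moved with the groups too. Adgre1 had 35.9, 39 and 21.3 CPM in positive replicates 1 to 3, against 2.88, 1.41 and 2.62 CPM in negative replicates 1 to 3 (log2 fold change 3.79, SE 0.32, edgeR adjusted p = 0.000659). All 12 macrophage markers rose, with a summed level of 356 to 776 CPM in positive libraries, against 58.9 to 79.4 CPM in negative ones. Of 12 cell cycle markers 11 rose, with 3910 to 4200 CPM in positive and 1740 to 2240 CPM in negative libraries. Of 13 stem cell markers 8 fell and 0 rose (1 rose with the replicate block, 0 in DESeq2, 1 at an unadjusted p below 0.05), with 3070 to 3440 CPM summed in positive libraries, against 4270 to 5350 CPM in negative ones, and among them Procr fell by 2.48 and Hlf fell by 1.53 on the log2 scale. Kit, the receptor of stem cell factor, had 1210 to 1570 CPM in positive libraries, against 1500 to 1930 CPM in negative ones. Its log2 fold change of -0.26 did not pass the threshold (edgeR adjusted p = 0.159). Slamf1, Ctnnal1, Tal1 and Gata2 did not pass either, with log2 fold changes of 0.02, -0.07, 0.14 and 0.21. Of lymphoid and myeloid lists, 1 of 7 tested B cell markers fell, or 4 with the replicate block (52 to 76.1 CPM summed in positive, 60 to 99.9 in negative libraries), 1 of 4 tested dendritic cell markers fell, or 2 with the replicate block (47.9 to 93.1 in positive, 89.5 to 132 CPM in negative libraries), and 0 of 7 tested neutrophil markers passed in edgeR, in DESeq2 or at an unadjusted p below 0.05 (23.5 to 230 in positive, 5.44 to 316 CPM in negative libraries). Of 5 tested T and NK cell markers 2 fell and 1 rose (306 to 311 in positive, 109 to 171 CPM in negative libraries). The gene that rose, Nkg7, a protein of cytotoxic granules, made up most of that sum, with 294, 292 and 301 CPM in positive libraries, against 145, 148 and 92.5 CPM in negative libraries, while Il2rb and Klrb1c fell, the call of Klrb1c being lost without positive replicate 3 or negative replicate 3. Cd3d, Cd3e, Cd3g and Cd8a were not tested and had 0 reads in every positive library. In negative replicates 1 to 3 they also had few reads. Cd3d had 5, 17 and 3, Cd3e 10, 13 and 4, Cd3g 5, 21 and 5, and Cd8a 15, 0 and 0. Of 7 tested endothelial markers 2 fell, Emcn and Flt4, and 1 rose, Stab2 (301 to 332 in positive, 329 to 359 CPM in negative libraries). The falls were each lost without positive replicate 1, positive replicate 3 or negative replicate 3, and the rise was lost in DESeq2, with no composition factor and without any positive replicate or negative replicate 3 (adjusted p 0.0122 to 0.139 over the alternatives). The part of macrophage RNA, the cell cycle and the stem cell fraction in the Gbp differences was not tested.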

How the data were processed

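Messenger RNA was sequenced from 6 libraries, 3 F4/80 positive and 3 F4/80 negative. Per the labels' protocols, RNA was isolated on micro columns and libraries were built with a stranded SMARTer kit. HISAT2 2.0.5, DESeq2 and GRCm39 are named in the submitters' processing notes, with no role for any. The aligned reads' counter, its annotation, filters and strand setting are not given in the sources used. The raw counts deposited by the authors were tested. The authors also deposited FPKM, which uses the gene length of the table, a normalized signal, equal to counts over a size factor for each library, and their own log2 fold changes and p-values. In the authors' deposited table the log2 fold changes of the 9 members ran from -5.03 to -0.48. Gene coordinates are those of the deposited table (GRCm39). Promoters come from RefSeq (GRCm38.p6) and transcripts from GENCODE M21, and coordinates of the builds were not mixed.

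The counts went through edgeR 4.0.16 in R 4.3.3: filterByExpr (minimum count 10, minimum total 15), TMM factors, and glmQLFTest for the positive over negative difference, with no covariate. A gene was called at a Benjamini-Hochberg adjusted p below 0.05 over 14451 genes. CPM use TMM factors, log2 CPM for pairs and profiles a prior count of 2, and standard errors are those implied by the F test. Motifs were searched on both strands. The edgeR step was tested on simulated data. Alternatives were a replicate block, DESeq2 1.42.0, DESeq2 size factors, no composition factor, no and a strict low-count filter (mean of 2 CPM), and leaving out each library. Libraries of a group differed beyond sampling noise (chi-square per degree of freedom 11.6 to 24.8).

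The labels number the libraries 4, 5 and 7 in both groups. Deviations from the group means correlated by 0.214, 0.284 and 0.256 in same-numbered pairs, all above the limit of 0.1, so the numbers were taken to pair the libraries. In the others they correlated by -0.2 to -0.071. Deviations within a group cancel in sum, so these negative values are tied to the positive ones and are no separate sign of pairing. The main fit did not use the pairing, which enters the fits as the replicate block alone. Counts of calls that the block moved by over 1.5 times stand beside their results or in the closing section.

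The members and gene lists were chosen with earlier results of these data known. The text names all members, every other Gbp gene, Adgre1, Irf1, Ifngr1 and Ifng, up to 4 called genes per list by lowest p, and the 8 nearest profiles. Other genes named were chosen after their values were seen. A few genes named by that rule are not reported here.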

Additional observations from a re-analysis of the deposited data

How the results depend on the processing

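Over 12 alternatives to the fit, 8 to 9 of the 9 members were called lower and 0 higher. Over the same alternatives 802 to 2429 of all tested genes were lower, beside 10.9% of them in the main fit. The members were picked with this contrast known, so nothing is read from their calls. Each member had a negative log2 fold change wherever it was tested, and the summed log2 ratio of the members stayed between -0.97 and -0.79. Genes lower over the whole table numbered 802 to 1612, and genes higher 656 to 1437, when 1 library was left out, beside 1572 and 1395 with all of them.

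With the replicate block, 2429 genes were lower and 2105 higher, 4 interferon gamma-induced genes rose, 1 type I interferon-induced gene rose, 4 inflammasome genes fell and 2 rose, and 1 autophagy gene rose. Among markers, 4 B cell and 2 dendritic cell genes fell and 1 stem cell gene rose with the block. The block moved no other count given here by more than 1.5 times and changed no call of a member. In DESeq2, 1 type I gene rose, 1 inflammasome gene fell and 1 autophagy gene rose, the last also with DESeq2 size factors in edgeR. With no composition factor, 0 p47 GTPases, 1 interferon gamma-induced gene and 1 dynamin relative rose and 1 inflammasome gene fell, and the median of all genes moved by -0.08. With the strict filter, 1 interferon gamma-induced gene rose, 1 inflammasome gene fell and 0 rose, and Gbp10 was not tested. The cause was not tested in any of these.

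When 1 library was left out, genes that fell numbered 4 to 10 for interferon receptors and transducers, 6 to 8 for p47 GTPases, 7 to 13 for interferon gamma-induced genes, 13 to 18 for type I genes, 3 to 4 for dynamin relatives, 0 for inflammasome genes and 1 to 2 for autophagy genes. Genes that rose numbered 0 to 1 for p47 GTPases, 0 to 2 for interferon gamma-induced genes, 1 to 2 for dynamin relatives and 0 to 2 for inflammasome genes. Of single named genes other than members, under all alternatives, 656 values kept their side of the threshold, 71 lost it and 0 reversed. Of the members' log2 fold changes, 103 moved by less than the SD between libraries of a group, 4 moved by more and 0 reversed. Few reads were counted for Gbp10, Gbp11 and Gbp4 in positive libraries, which limits how well their levels there are known.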

Other observations

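Within the dynamin superfamily, to which guanylate-binding proteins belong, the relatives were read from a list of 19. Of 17 tested, 4 fell and 2 rose, with a median log2 fold change of -0.01 beside -0.03 for all genes. The 3 very large interferon-inducible GTPases of the mouse were among those that fell: Gvin1 had 4.23, 5.34 and 2.99 CPM in positive replicates 1 to 3, against 11.8, 11.8 and 13.6 CPM in negative replicates 1 to 3, a log2 fold change of -1.57 (SE 0.24, edgeR adjusted p = 0.00364). Gvin2 fell by 1.26 (SE 0.26, edgeR adjusted p = 0.0131) and Gvin3 by 1.04 (SE 0.15, adjusted p = 0.00258), and reads may be split among these related genes in a way that is not known. The antiviral GTPase Mx1 fell by 1.74 (SE 0.53, edgeR adjusted p = 0.0482, 0.0173 to 0.136 over the alternatives) from few reads, a call lost without any library other than negative replicate 3, and Mx2 had -2.28 (SE 0.72, adjusted p = 0.0537).

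The relatives that rose were Ehd3 and Atl2. Ehd3, which acts in recycling of endosomes, had 84.9, 85.4 and 73.9 CPM in positive libraries, against 44, 44.5 and 54.6 CPM in negative libraries, and rose by 0.77 (SE 0.12, edgeR adjusted p = 0.00335). Atl2, which shapes the endoplasmic reticulum, rose by 0.38 (SE 0.10, edgeR adjusted p = 0.0279, 0.00689 to 0.0904 over the alternatives), a call lost when composition factors were dropped and in every fit leaving out a library other than positive replicate 2. The general dynamin Dnm2, the mitochondrial fission gene Dnm1l and the fusion genes Opa1, Mfn1 and Mfn2 had log2 fold changes of 0.09, 0.14, 0.15, 0.08 and -0.01, none past the threshold.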
